A study of Mus musculus with 9 samples.

Results

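The SoxF transcription factors Sox7, Sox17 and Sox18 were followed across 3 Bcl11a genotypes of mouse hematopoietic stem cells (HSCs). They are 3 of the 22180 genes that the arrays measured through a probe set with a single gene symbol. The members were chosen by family, and the family was picked because Sox18 read higher with each deleted Bcl11a allele; the values of Sox18 are therefore given as a description with no test. Each gene had 1 probe set: 17301256 for Sox7, 17221071 for Sox17 and 17395928 for Sox18.

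HSCs were sorted from marrow of 6- to 8-month-old mice, with 3 biological replicates per genotype, 1 array each and 9 arrays in all. All mice, controls included, were injected intraperitoneally 5 times with the interferon inducer poly(I:C), a double-stranded RNA analogue. Wild-type mice (WT) carried Bcl11afl/fl without Mx1-Cre, heterozygous mice (Het) Bcl11afl/wt with Mx1-Cre, and homozygously deleted mice (KO) Bcl11afl/fl with Mx1-Cre. Mx1-Cre is a recombinase driven by an interferon-inducible promoter that is active in many cell types, so Bcl11a deletion was not limited to HSCs, and in any comparison with WT the presence of Cre and the loss of Bcl11a cannot be told apart. The sort took LSK CD48- Flt3- CD150+ cells, which were YFP+ or YFP-, and the labels do not say which arrays held which. LSK cells lack lineage markers and carry Sca-1 and Kit.

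SoxF proteins share a DNA-binding HMG box and a transactivating C-terminal part. They are best known in endothelium, where they act with Notch and VEGF signalling in arterial and lymphatic development and can stand in for each other. In blood, Sox17 is known as a factor that fetal HSCs need and adult HSCs largely switch off, and Sox7 and Sox18 as factors expressed early in the emergence of blood from hemogenic endothelium and then turned down. BCL11A is a repressor with zinc fingers that shuts off fetal globin genes in red cells and is needed to make B cells.

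Values are log2 expression as deposited, and errors are SD over n = 3 arrays unless named otherwise. Array medians lay between 3.95 and 4.15, and arrays of the same genotype correlated with r of 0.862 to 0.932 across probe sets. By Xist and 3 Y-linked genes, 2 WT, 1 Het and 1 KO array came from female mice. These genes also give a scale of what absent transcripts read: on the 4 female arrays Y-linked transcripts lay at 2.22 to 3.32, and on the 5 male arrays Xist lay at 3.58 to 4.22. The span from 2.22 to 4.22 is called the background range here, although weak real expression can also read there. Bcl11a itself read 8.73, 8.81 and 8.38 in WT, 8.34, 8.37 and 8.89 in Het and 7.82, 7.90 and 8.66 in KO. KO replicate 3 thus read inside the WT range, and the probe set does not show whether the deletion took place.

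Sox18, the factor mutated in the ragged mouse and known for lymphatic and blood vessel development, stepped up from the background range in WT to clear expression in KO cells. It read 4.08, 3.61 and 3.69 on the WT arrays, 4.56, 5.19 and 4.91 on the Het arrays and 6.91, 7.23 and 6.01 on the KO arrays. Every Het array lay above every WT array and every KO array above every Het array, a pattern that 4.51% of all genes tested showed for Het above WT and 4.42% for KO above Het, with a gap of 0.48 between the closest WT and Het arrays and of 0.82 between the closest Het and KO arrays. The group means were 3.79 ± 0.251 in WT, 4.89 ± 0.316 in Het and 6.72 ± 0.633 in KO. The log2 difference was 1.09 (SE 0.330) for Het minus WT, 1.83 (SE 0.330) for KO minus Het and 2.92 (SE 0.330) for KO minus WT. On the linear scale these are 2.13-fold, 3.56-fold and 7.59-fold. Since WT lay in the background range, the fold changes against WT may understate the change in transcript level. Nothing is read from the size of these values beyond the description, because they chose the gene.

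For scale, 28 of the 16636 genes tested (0.168%) had their genotypes in rising order with no overlap of arrays, and 19 (0.114%) in falling order. Ranked by difference over all genes tested, Sox18 was the 10th highest in KO minus WT, the 24th in KO minus Het and the 237th in Het minus WT. Sox18 was itself among the 28 genes in rising order. The ranks rest on the values that chose it and are descriptions, and the comparisons share arrays.

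Among KO arrays, Sox18 was lowest on replicate 3, the array on which Bcl11a was highest. That array also had the narrowest interquartile range of the KO arrays, 2.42 against 2.83 and 2.80. The narrowest of all arrays, 2.22, was on WT replicate 1. The part of the Bcl11a level or of the array's spread in the Sox18 value was not tested. Without KO replicate 3 the KO minus WT difference of Sox18 was 3.28. It was 2.67 to 3.28 when each of the 9 arrays was left out in turn. Within female mice, with 1 KO and 2 WT arrays, the difference was 2.13, and within male mice, with 2 KO arrays and 1 WT array, 3.46. For Het minus WT the differences were 1.03 and 1.27 within female and male mice, and for KO minus Het 1.10 and 2.20. The order of the genotypes was the same in both sexes, as it had to be with no overlap of arrays between genotypes. Each sex had 1 or 2 arrays a genotype. The only female KO array was replicate 3. Among KO arrays, sex thus cannot be told apart from the Bcl11a reading and the spread of that array.

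**Figure D1:**
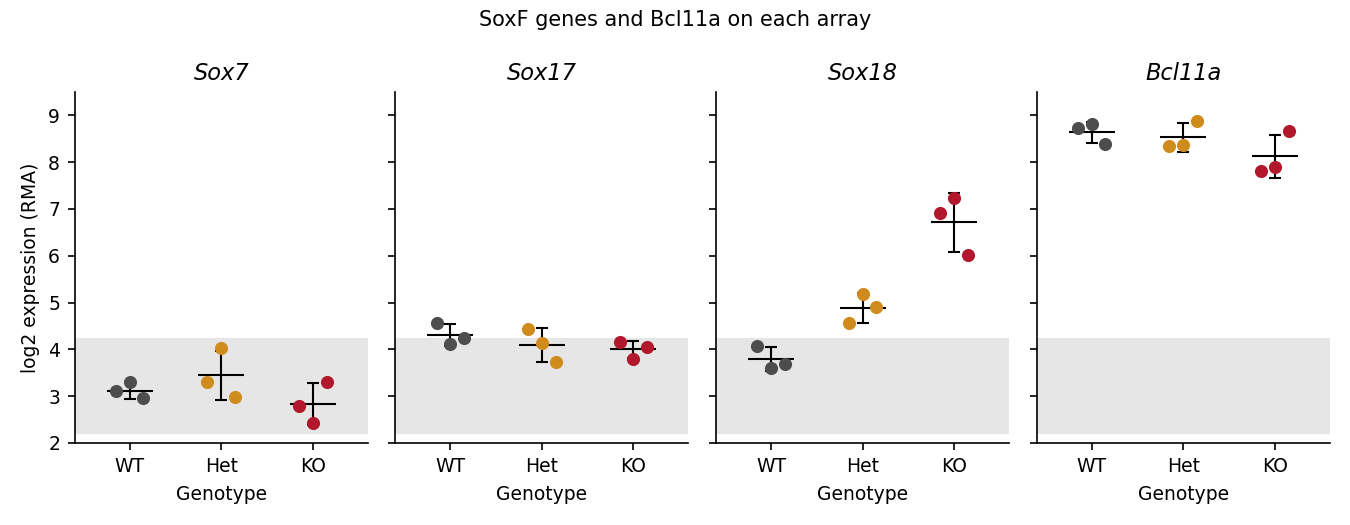
Log2 expression of Sox7, Sox17, Sox18 and Bcl11a on each array (points, replicates 1 to 3 from left to right within a genotype), with the mean and SD of each genotype (bar and whiskers, n = 3); the grey band is the background range of 2.22 to 4.22. Sox18 climbs out of the band from WT to KO with no overlap between genotypes, Sox7 stays inside it, and Sox17 lies at its upper edge.

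Sox17, the family member required for fetal and neonatal HSCs, did not follow Sox18. It read 4.57, 4.12 and 4.24 in WT, 4.44, 4.14 and 3.72 in Het and 4.16, 3.80 and 4.04 in KO. All genotypes overlapped, and the arrays straddled the upper end of the background range. The means were 4.31 ± 0.233, 4.10 ± 0.362 and 4.0 ± 0.183.

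The KO minus WT difference of Sox17 was −0.31 (SE 0.254, 95% interval −0.87 to 0.25, limma adjusted p = 0.738). It was −0.21 (−0.77 to 0.35, adjusted p = 0.992) for Het minus WT and −0.10 (−0.66 to 0.46, adjusted p = 0.998) for KO minus Het. Exact two-sided permutation p-values over arrays were 0.2, 0.5 and 0.8, where 0.1 is the smallest that 3 against 3 allow. None of these comparisons passed, where limma called 7 of 16636 genes (0.0421%) in KO minus WT and 0 (0%) in Het minus WT and in KO minus Het. The interval leaves room for a fall of up to 0.87 in KO cells. Its upper bound was 0.25. As the arrays straddled the upper end of the background range, a change in transcript level may be understated.

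Sox7, which marks early blood and endothelial progenitors of the embryo, read inside the background range on all 9 arrays. It read 3.10, 3.30 and 2.95 in WT, 3.31, 4.02 and 2.99 in Het and 2.78, 2.42 and 3.31 in KO, so the genotypes overlapped. Its mean over the arrays lay under the level of 3.31 that a gene needed to be tested, and it entered no comparison of the main fit. In the same fit without that filter, KO minus WT was −0.28 (SE 0.313, 95% interval −0.97 to 0.41, limma adjusted p = 0.819). Het minus WT was 0.32 (−0.37 to 1.02, adjusted p = 0.999) and KO minus Het −0.60 (−1.30 to 0.09, adjusted p = 0.998). Exact permutation p-values were 0.5, 0.4 and 0.3. Adjusted over the 6 permutation tests of Sox7 and Sox17, every value was 0.6 or 0.8.

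With the family members as each other's control, the KO minus WT difference of Sox18 exceeded that of Sox17 by 3.23 and that of Sox7 by 3.20 on the log2 scale. In Het minus WT the excess was 1.30 over Sox17 and 0.77 over Sox7. Computed within each array, the Sox18 to Sox17 and Sox18 to Sox7 log ratios did not overlap between any pair of genotypes; the closest were Het and WT for Sox7, 0.19 apart. These differences contain the values that chose Sox18 and are descriptions.

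Most other Sox genes read slightly lower in KO cells. Of 16 measured, 14 passed the filter; in KO minus WT 2 were higher and 12 lower, with a median of −0.20 beside −0.04 over all genes tested. With limma none was called, where 0.0421% of all genes tested were, and none had an unadjusted p under 0.05. Sox3, a SoxB1 factor of neural progenitors, read 4.14, 4.42 and 4.18 in WT and 4.11, 3.70 and 3.31 in KO, and Sox14 read 6.36, 6.07 and 5.78 against 5.71, 5.49 and 5.68. These 2 did not overlap between WT and KO and were lower in KO, as was 7.32% of all genes tested; their limma adjusted p-values were 0.610 and 0.697. Sox15 differed by −0.52 and Sox4, the SoxC factor known in lymphoid and stem cells, by 0.45 (adjusted p = 0.650 and 0.705), both with overlap. Genes with a mean under the median level of 4.29 had a median KO minus WT difference of −0.18 and the rest 0.07; Sox17 lay among the dim genes. The part of this shift of dim genes in the values of Sox17 and the dim Sox genes was not tested. With the arrays' interquartile ranges in the model, the median of the other Sox genes was −0.04.

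**Figure D2:**
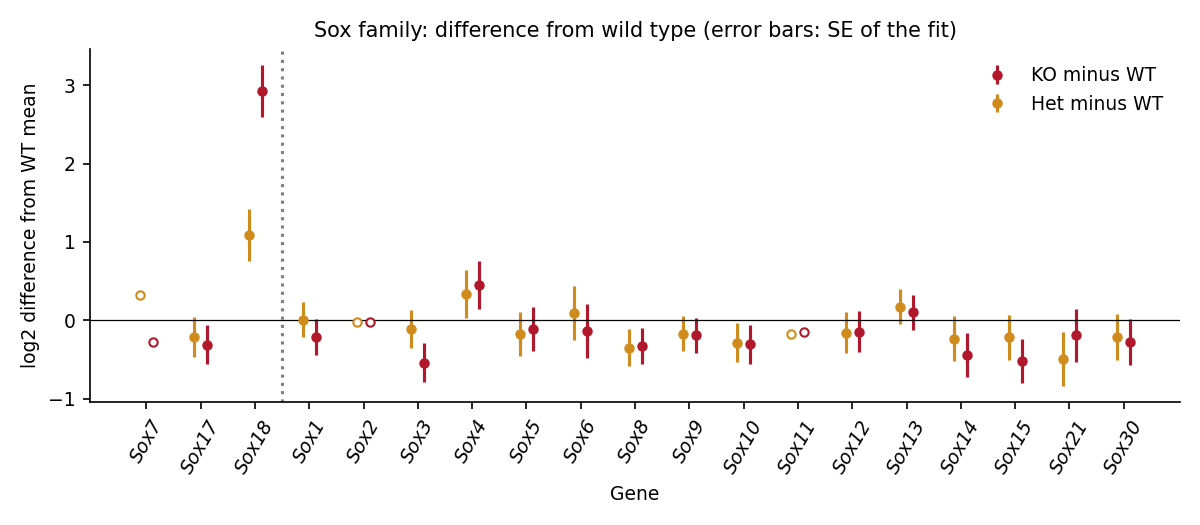
Log2 difference from the WT mean for Het (orange) and KO (red) of the SoxF genes, left of the dotted line, and the other Sox genes; error bars are the SE of the fit and open symbols mark genes under the filter, which have none. Sox18 stands at 1.09 and 2.92, and the other Sox genes right of the line lie between −0.54 and 0.45.

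The genes whose pattern over the 9 arrays was most like that of Sox18, by Pearson's r, were Mapk12 (0.949), Mef2c (0.949), Myo5c (0.946), C4b (0.944) and Ercc6l2 (0.944). This likeness is a description over arrays that share the genotype steps. Mapk12 encodes the p38 gamma kinase, and C4b the complement component C4. C4b read 3.85, 3.86 and 3.05 in WT, 4.66, 4.54 and 4.43 in Het and 5.80, 5.81 and 4.90 in KO, in the same order of genotypes without overlap. Mapk12 read 4.08, 3.89 and 4.27, then 4.81, 4.66 and 4.58, then 5.91, 5.67 and 4.95. Both were lowest among KO arrays on replicate 3, as Sox18 was. Their KO minus WT differences, 1.92 for C4b and 1.43 for Mapk12, did not pass with limma (adjusted p = 0.101 and 0.168).

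Mef2c, a MADS-box factor whose protein is known to bind SOX18, was the member of the partner list nearest to Sox18 in pattern. It was well expressed throughout, at 8.63, 8.36 and 8.45 in WT, 8.78, 8.87 and 8.87 in Het and 9.07, 9.36 and 9.19 in KO. The genotypes did not overlap, while the KO minus WT difference of 0.73 (SE 0.204) did not pass over all genes (limma adjusted p = 0.413). The nearest genes for Sox17 were Col20a1 (r = 0.973), Chrna1, Cryaa, Gprc5c and Pcsk2os2, and for Sox7 Ccdc120 (0.947), Wif1, Sp8, Col1a1 and Gpr83. Apart from Col20a1 and Cryaa, these genes read at most 5.12 on any array.

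The genes beside Sox18 in the RefSeq order of GRCm38.p6 differed less. Prpf6, a splicing factor on one side, differed by 0.11 in KO minus WT, and Rgs19, a regulator of G protein signalling on the other, by 0.06. Tcea2, an elongation factor next to Sox18, read 4.49, 4.08 and 5.13 in WT, 4.80, 5.65 and 5.98 in Het and 6.56, 5.22 and 4.40 in KO, with overlap of all genotypes (KO minus WT 0.83, SE 0.524, limma adjusted p = 0.691). Its lowest KO array was again replicate 3. Gm29797, also beside Sox18, was not analysed here. Beside Sox17, Mrpl15 and Lypla1 differed by −0.96 and 0.34 and Xkr4 by −0.53 (adjusted p from 0.595 to 0.822), and Rp1 lay under the filter. Beside Sox7, Pinx1, Xkr6, Rp1l1 and 4930578I06Rik differed by 0.23, 0.73, −0.16 and −0.41 (adjusted p from 0.628 to 0.873).

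Endothelial genes known to be SoxF targets split. Of 13 measured, 12 were tested; in KO minus WT 5 were higher and 7 lower, with a median of −0.04, the same as over all genes. None was called with limma, and 3 (Kdr, Efnb2 and Ece1) had an unadjusted p under 0.05, as did 8.21% of all genes tested. The same 3 were higher in KO with no overlap, which held for 6.51% of all genes tested. Kdr, the main VEGF receptor, read 3.53, 3.94 and 3.78 in WT, 4.25, 4.40 and 4.71 in Het and 5.85, 4.90 and 4.23 in KO. KO replicate 3 was level with Het, and the WT arrays lay in the background range (KO minus WT 1.24, SE 0.367, adjusted p = 0.438).

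Efnb2, an arterial ephrin ligand, differed by 0.86 and Ece1, the endothelin-converting enzyme, by 0.84 (limma adjusted p = 0.563 for each), Efnb2 from WT arrays in the background range. Cdh5, the VE-cadherin gene that SoxF proteins activate in endothelium, read 3.91, 4.30 and 4.46 in WT and 3.59, 4.09 and 4.38 in KO. Cldn5, a tight junction claudin and known Sox18 target, read 4.15, 3.93 and 3.40 in WT and 4.15, 3.68 and 3.46 in KO. The genotypes overlapped for both genes, and their values lay in or just above the background range. Dll4 and Notch4 differed by −0.06 and −0.02, Vcam1 by −0.34, and Prox1, the lymphatic regulator downstream of Sox18, lay under the filter at 2.52 to 3.40 on all arrays. The median of the target list was 0.49 over the members at or above the median level of all genes, 0.09 without WT replicate 1 and 0.07 without KO replicate 1, so it has no stable sign.

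The VEGF genes showed no common shift. Of 10 measured, 7 were tested, 2 higher and 5 lower in KO minus WT (median −0.06), and none was called with limma. Kdr, already counted in the target list, had an unadjusted p under 0.05 in that fit. Flt4, the lymphatic VEGF receptor, differed by −0.25, Vegfc by −0.26 and Vegfa by 0.22, all with overlap. For Wnt signalling, which Sox17 is known to restrain, 12 of 13 measured genes were tested, 6 higher and 6 lower (median −0.08), and none was called or had an unadjusted p under 0.05. Sp5, Notum, Tcf7l2 and Lgr5 differed by −0.44, −0.51, 0.59 and −0.31. Fetal HSC genes, which accompany Sox17 before birth, had 3 tested members of 4 measured, all higher with overlap and none called: Igf2bp3 by 0.21, Arid3a by 0.19 and Hmga2 by 0.13, beside Lin28b, which lay under the filter. These members were highest on KO replicate 3, at 4.63, 6.20 and 5.82. On the other KO arrays Arid3a and Hmga2 read under their WT means, 5.11 for each.

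SoxF partners and the transcription factors shared by blood and endothelium were mostly higher in KO. Of 12 tested, 10 were higher and 2 lower, with a median of 0.55 beside −0.04 over all genes. All but Etv2 had a mean above the median level, where the median over genes was 0.07. None was called with limma, and 4 had an unadjusted p under 0.05, as did 8.21% of all genes tested. Besides Mef2c these were Lmo2, Lyl1 and Erg, which differed by 0.87, 0.81 and 0.85 (adjusted p from 0.547 to 0.569). These 4 were higher in KO with no overlap with WT, as were 6.51% of all genes tested. Lmo2, an adaptor of stem cell transcription complexes, read 7.21, 7.81 and 8.15 in WT and 8.81, 8.79 and 8.19 in KO. Erg, an ETS factor that HSCs need, read 7.60, 8.65 and 8.84 in WT and 9.56, 9.12 and 8.95 in KO. The lowest value of each was WT replicate 1, and without it the median of the list was 0.38. Etv2, the ETS factor that opens the embryonic endothelial programme, stayed at 3.09 to 3.99 on all arrays.

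**Figure D3:**
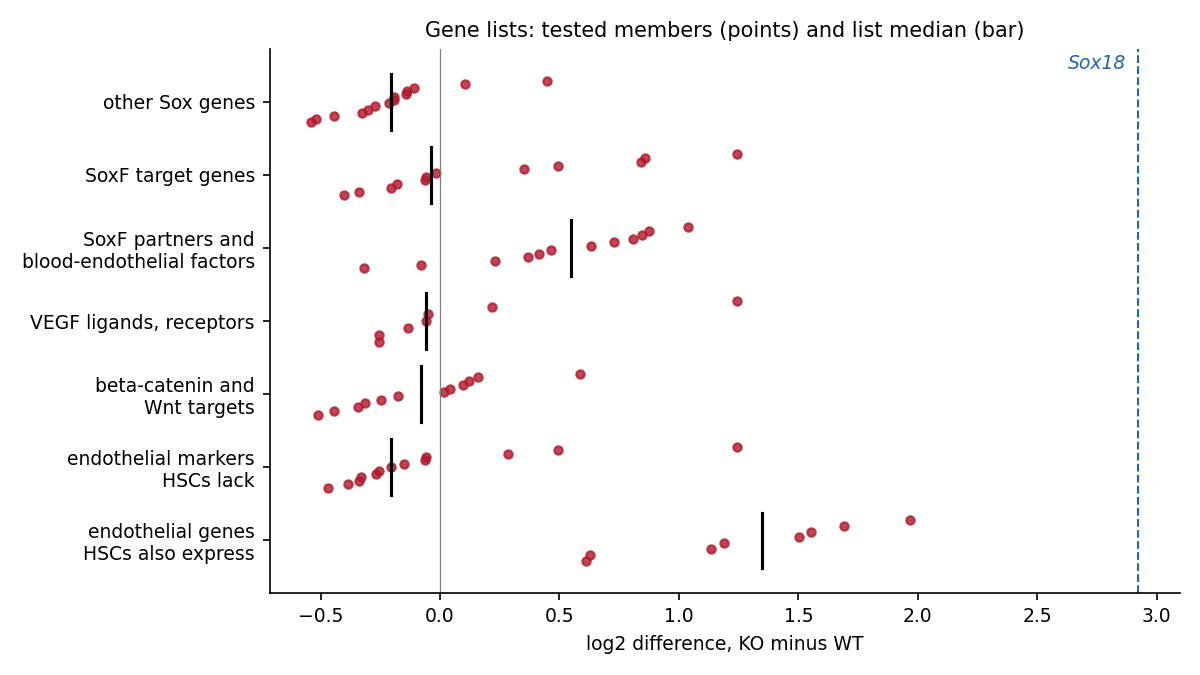
Log2 difference KO minus WT of each tested gene (points) in 7 of the lists, with the list median (black bar) and Sox18 for reference (dashed line at 2.92). Among these 7 lists the medians run from −0.20 for the other Sox genes to 1.35 for endothelial genes that HSCs also express, with Pecam1 highest at 1.97; the fetal, gate, lineage and stromal lists are not drawn.

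Because SoxF genes are endothelial, markers of endothelium were read on the same arrays. Markers that HSCs lack or hold little of were lower for 10 of 13 members in KO minus WT, with a median of −0.20, close to the −0.18 of dim genes in general. That median was 0.39 over the members at or above the median level, −0.06 when quantile normalized again and −0.03 with interquartile ranges in the model, so its direction depends on these settings. The mean over this list was 3.94 to 4.28 on the WT arrays, 3.87 to 4.24 on the Het arrays and 4.10 to 4.16 on the KO arrays. On all 9 arrays 4 of the 13 stayed at or under the top of the background range. The KO arrays thus lay inside the range of the WT arrays in this list, and Kdr was the member that was higher with no overlap. Kdr, Cdh5, Cldn5 and Robo4 are also members of the target list, and Kdr, Flt1 and Flt4 of the VEGF list. The counts of these lists are therefore not separate. Robo4, which HSCs are known to express too, differed by 0.49 with overlap, and Plvap, of fenestrated endothelium, by −0.47, lower in KO with no overlap (7.32% of all genes tested). Markers of stroma had a median of −0.14 over 4 tested members.

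Endothelial genes that HSCs also express were higher in KO for 8 of 8 members, with a median of 1.35; none was called with limma, and 5 had an unadjusted p under 0.05, beside 8.21% of all genes tested. Pecam1, the adhesion molecule CD31, read 4.85, 5.87 and 5.76 in WT, 5.80, 6.74 and 6.74 in Het and 7.30, 7.63 and 7.45 in KO (KO minus WT 1.97, SE 0.344, adjusted p = 0.134). Every KO array lay above every WT and Het array. Tek, the angiopoietin receptor, and Vwf, the von Willebrand factor, differed by 1.69 and 1.55, and with Pecam1 and the sialomucin gene Emcn they made up the 4 members that were higher without overlap between WT and KO (6.51% of all genes tested).

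WT replicate 1 stood apart in this list, with a mean of 4.78 where the other WT arrays read 6.07 and 5.99. The KO arrays read 7.02, 7.05 and 6.63 and the Het arrays 5.91, 6.14 and 6.77. Without WT replicate 1 the median difference was 0.78, while the KO minus WT difference of Sox18 was 3.07. In bulk RNA from a sorted population, a change in the share of cells that express a gene and a change in RNA per cell cannot be told apart, for Sox18 or for these genes.

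The label of the sorted cells was read against 11 measured gate and HSC markers; Kit read 8.75 to 10.01 and Ptprc, the pan-leukocyte CD45 gene, 8.57 to 9.39 on all arrays, and Flt3 and Cd48, which the gate excludes, stayed at or under 5.36. Other values went less well with the gate: Slamf1 (CD150) read 4.64 and 4.67 on WT replicates 1 and 2, Procr 5.05 on WT replicate 1, and the neutrophil gene S100a8 8.42 to 8.97 on the WT arrays. In KO minus WT 9 of the 11 were higher (median 1.06), none called with limma and 8 with an unadjusted p under 0.05 (8.21% of all genes tested). Hoxb5 differed by 2.24, Mecom by 1.94, Cd34 by 1.62 and Fgd5 by 1.24. Across genotypes Slamf1 read 4.64, 4.67 and 6.71 in WT, 6.61, 7.32 and 7.34 in Het and 7.94, 6.53 and 6.43 in KO. Most of these 11 genes thus read higher in KO cells, as Sox18 did. The list also holds Ptprc, Flt3 and Cd48, so the count is not one of HSC markers alone. The part of the cells' make-up in the Sox18 values was not tested.

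Lineage markers of other marrow cells were lower in KO for 8 of 9 tested members (median −0.24). S100a8, a neutrophil protein, read 8.97, 8.59 and 8.42 in WT, 5.06, 8.74 and 7.07 in Het and 5.34, 6.74 and 2.31 in KO, and Itgam, a myeloid integrin, was the member that was higher, by 1.21. The list mean was 4.04 to 4.34 in WT, 3.82 to 4.19 in Het and 3.56 to 3.80 in KO. This separation of KO from the other arrays rested on S100a8: without it the mean of the other 10 measured members was 3.88, 3.75 and 3.60 in WT, 3.70, 3.73 and 3.52 in Het and 3.38, 3.51 and 3.76 in KO, with overlap.

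**Figure D4:**
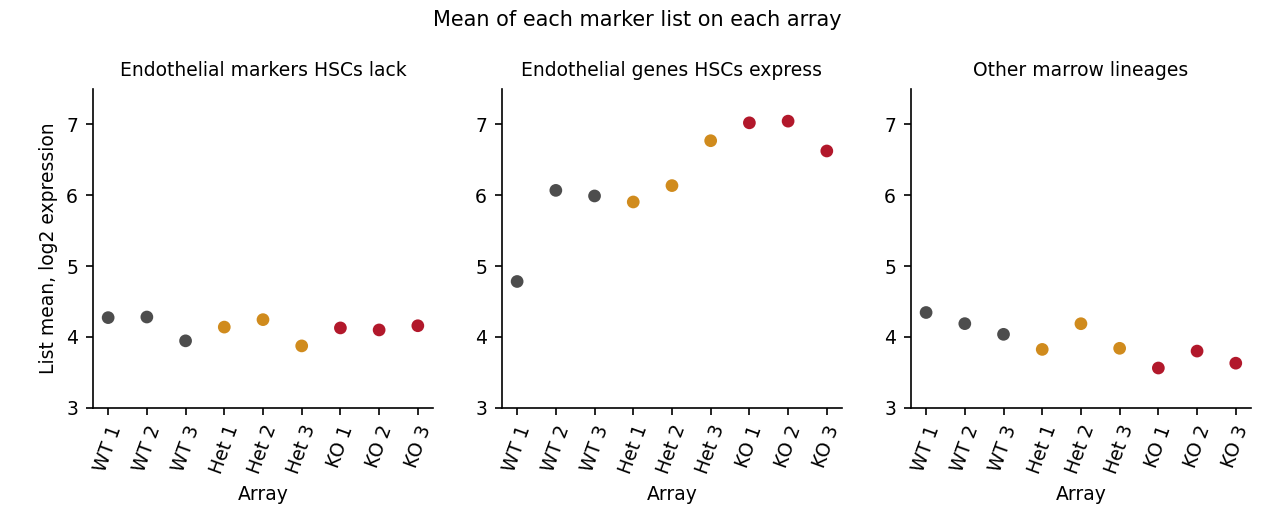
Mean log2 expression of 3 marker lists on each array, coloured by genotype. Endothelial markers that HSCs lack stay between 3.87 and 4.28 on all arrays, endothelial genes that HSCs express run from 4.78 on WT replicate 1 to 7.05 on KO replicate 2, and the mean of the lineage markers runs from 4.34 to 3.56, a span that rests largely on S100a8.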

How the data were processed

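The authors deposited log2 values from Affymetrix Mouse Gene 2.0 ST arrays, normalized and summarised by RMA per the submitters' processing notes. No version, settings or genome build of that step were given in the sources used here. RMA pulls the values of dim probe sets together. RNA was amplified with Ribo-SPIA before labelling, per the labels' protocols. The number of arrays limits the precision. The arrays show only the spread between these mice.

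Of 41345 probe sets, 23521 had a single gene symbol, 1814 several and 16010 none listed. Each of 22180 genes was taken at its probe set with the highest mean. The 16636 genes with a mean at or above the 25th percentile were tested with limma 3.58.1 (R 4.3.3; lmFit, eBayes; a mean per genotype over 9 arrays), two-sided with Benjamini-Hochberg adjustment, and called at an adjusted p under 0.05. The fit was tested on simulated data. Replicate numbers showed no common pairing of the arrays and were not used in the main fit.

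The members, gene lists and tests were chosen with earlier results of these data known. Named genes were the members, Bcl11a, the 4 members of each list with the smallest p, the 5 nearest genes by r (predicted genes, RIKEN names and olfactory or vomeronasal receptors left out) and 2 neighbours on each side; other list members were named after their values were seen.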

Additional observations from a re-analysis of the deposited data

How the results depend on the processing

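Sox18 kept its sign in every comparison under all alternatives, most of which could not have changed it. The filters, the replicate block and the fit of only the 2 genotypes compared leave a difference of group means as it is. With a second quantile normalization, sex as a term or interquartile ranges in the model, KO minus WT was 2.91, 2.84 and 2.81. Leaving out or weighting arrays could not have changed the sign, because Sox18 showed no overlap of arrays between genotypes. With an array left out, its KO minus WT difference ran from 2.67 to 3.28, Het minus WT from 0.94 to 1.26 and KO minus Het from 1.57 to 2.18. KO minus WT was 3.42 without WT replicate 1 and KO replicate 3 together, an alternative added after seeing the data. Sox17 never passed. With an array left out, it ran from −0.41 to −0.18 in KO minus WT and from −0.38 to −0.02 in Het minus WT. In KO minus Het it ran from −0.29 to 0.07, with the sign reversed without Het replicate 1. With interquartile ranges in the model, its KO minus WT difference was −0.165. Sox7, computed from group means with an array left out, ran from −0.52 to −0.07, 0.03 to 0.55 and −0.84 to −0.31.

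The count of called genes in KO minus WT, 7, was 4 with the filter raised to the median level, 3 when quantile normalized again, 3 with sex as a term, 24 with limma's array weights, 0 with the arrays' interquartile ranges in the model, 1 with only the 2 genotypes compared, 0 to 15 with an array left out and 2 without both arrays named above. The slope per deleted allele called 3 genes, and 1 with sex as a term, 15 with array weights, 0 with interquartile ranges in the model, 0 to 14 with an array left out and 0 without both arrays. With the replicate block these counts were 0 and 7. Same-numbered arrays deviated together with r over 0.1 in 1 of 9 pairs (range −0.19 to 0.23). No common pairing was seen, a question that 3 arrays a genotype cannot settle. The cause of these changes in the counts was not tested. Het minus WT and KO minus Het called 0 genes throughout. No other probe set of a SoxF gene was available as an alternative.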
